A study of Mus musculus with 10 samples.

Results

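TAM receptors are a family of receptor tyrosine kinases named for Tyro3, Axl and Mertk, and their ligands are growth arrest specific 6 (Gas6) and protein S (Pros1). These 5 genes were taken by symbol from a deposited table of 78317 genes, and each matched 1 row. Small punches of medial prefrontal cortex, an area at the front of the mouse brain that takes part in planning and emotion, were sequenced after selection of polyadenylated RNA. Libraries 13, 14, 15, 17 and 18 are from mice injected with an adeno-associated virus (AAV) that overexpressed miR-130a-3p. The control libraries, numbered 3, 4, 5, 7 and 9, came from mice injected with a control AAV. All 10 libraries are labelled wild type and mixed cell types. Strain, age, the promoter in the virus and the cells that it reached are not given in the sources used here, and nothing states that each library is a separate mouse. The spread behind each p-value is therefore that between libraries, which may be technical in part. The comparison asks how transcripts of this receptor system differ when the microRNA is overexpressed.

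The ligands work as bridges. One end, the Gla domain, is modified with the help of vitamin K and binds phosphatidylserine, a lipid that dying cells and shed membranes display. The other end, built of laminin G domains, binds the receptor on a phagocyte, which then engulfs its target and dampens Toll-like receptor and interferon signals. Gas6 binds each of the receptors, while protein S acts through Tyro3 and Mertk and also serves as an anticoagulant in blood. In brain, Tyro3 is known mainly from neurons, Mertk from microglia and astrocytes, and Axl from endothelial cells, astrocytes and microglia, in which it is induced on activation.

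The sequence of the overexpressed microRNA and the places where the 3′ untranslated regions (UTRs) of the 5 genes are complementary to its seed are shown first, since a microRNA acts through such matches. The mature microRNA is given in RefSeq on chr2:84741116-84741137, minus strand, of GRCm38.p6, with its seed, bases 2 to 8, in capitals.
mmu-miR-130a-3p: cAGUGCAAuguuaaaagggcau
The match to the whole seed is TTGCACT, a match to bases 2 to 7 followed by A is TGCACTA, and the core that both contain is TGCACT. Only the strand of the transcript was searched, in the longest annotated 3′ UTR of each gene (GENCODE M21, GRCm38). Pros1, on chromosome 16, held 1 whole-seed match, starting at base 161 of a 3′ UTR of 1153 bases (chr16:62928341-62928368, plus strand). Axl, on chromosome 7, held the core alone, starting at base 1234 of 1389 (chr7:25757415-25757442, minus strand). In both lines below, the capitals mark the matching bases.
Pros1: tttttgaaaagtcTTGCACTcattgctg
Axl: ttaagcctgtgcgaTGCACTgggaatgc
The 3′ UTRs of Tyro3 (1070 bases), Mertk (1227 bases) and Gas6 (372 bases) held 0 copies of the core. Among 13307 tested genes with an annotated 3′ UTR, 16.8% held a match of at least 7 bases and 36.9% held the core, and of the 5 genes here 1 and 2 did. A match is a description of letters and not a measured site of binding.

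The microRNA itself could not be followed. Its gene, Mir130a, was listed at 0 in all 10 libraries, and 0 of 2206 microRNA genes had a value above 0. Values are TPM, the abundance of a transcript relative to all transcripts of its library, scaled by length, so that genes can be compared with each other. Read numbers cannot be recovered from TPM, so the depth of each library is unknown. Fold changes were computed on log2(TPM + 1), miR-130a over control, and tested with limma over 15680 genes with a mean of at least 1 TPM. All 5 genes passed that minimum. An adjusted p under 0.05 was reached by 1767 genes lower in the miR-130a group, or 11.3% of those tested, and by 343 higher, or 2.19%. Over all tested genes, the log2 fold change had a median of −0.09. Median-ratio scaling moved that median to 0.0082 and called 1192 genes lower and 862 higher. The share of higher genes among the calls was then 42%, against 16.3% with the values as deposited. Control libraries 7 and 9 were the highest controls in the summed TPM of 15 genes of the interferon arm of this pathway, Toll-like receptors included. It was 412 and 362 there and 268 to 324 in control libraries 3, 4 and 5, without a clear break between them. Results that rest on them are also given without them.

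Of the 5 genes, 3 passed the threshold, and all 3 were lower in the miR-130a group: the receptor Axl and both ligands, Pros1 and Gas6. The other two receptors, Tyro3 and Mertk, did not pass. Relative to the median of all genes, the log2 fold changes were −1.11 for Axl, −0.73 for Pros1, −0.29 for Gas6, −0.19 for Mertk and 0.10 for Tyro3. Of all tested genes, 9.46% had every miR-130a library below every control library, and Axl, Gas6 and Pros1 were among them.

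**Figure D1:**
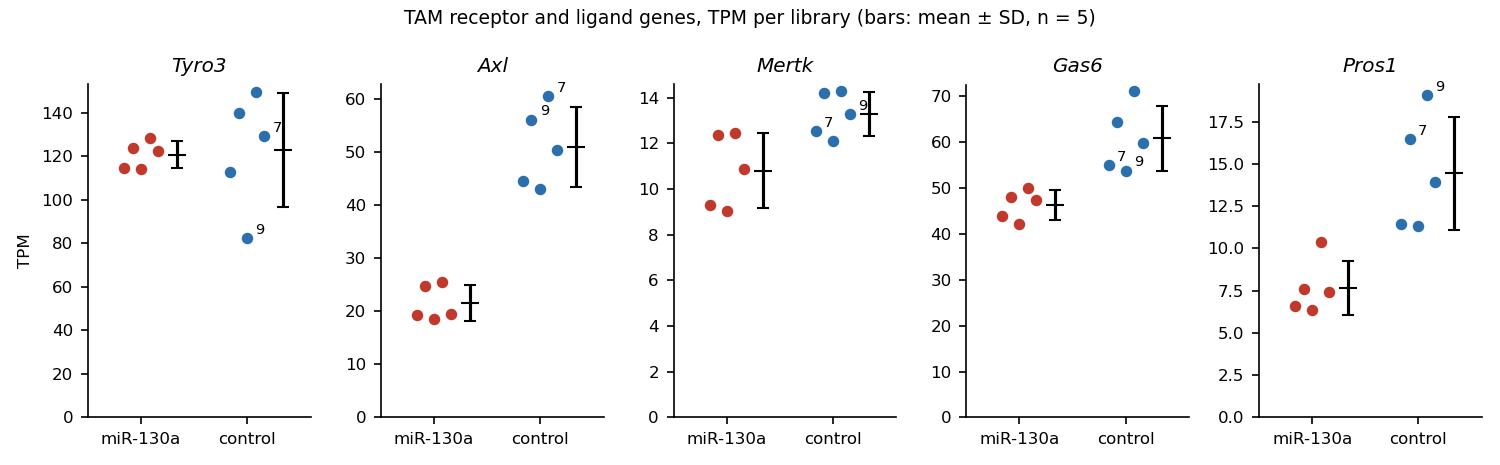
TPM of the 5 genes in each library, with miR-130a libraries in red and control libraries in blue (numbers mark control libraries 7 and 9, bars give the mean ± SD, n = 5 each). All red points lie below all blue points for Axl, Gas6 and Pros1, the groups overlap for Mertk, and for Tyro3 the control points spread on both sides of the red ones.

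Axl (ENSMUSG00000002602) is the receptor that binds Gas6 alone. It had 18.6, 19.4, 19.5, 25.5 and 24.9 TPM in miR-130a libraries 13, 14, 15, 17 and 18, against 43.0, 50.4, 44.6, 60.6 and 56.2 TPM in control libraries 3, 4, 5, 7 and 9. The groups were far apart, with the highest miR-130a library well below the lowest control, and control libraries 7 and 9 were the highest of all. Axl fell to 21.6 ± 3.34 TPM in miR-130a libraries, against 51.0 ± 7.49 TPM in control libraries (SD, n = 5 each). Its log2 fold change was −1.20 (SE 0.13; 95% interval −1.48 to −0.92; limma adjusted p = 0.000607), and its p ranked 19 of 15680. The change was larger in size than that of 96.5% of tested genes. Without control libraries 7 and 9 it was −1.07 (limma adjusted p = 0.00323).

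Mertk (ENSMUSG00000014361) is the receptor best known for the engulfment of dying cells and of synaptic material by phagocytes. It had 9.28, 10.9, 12.4, 9.02 and 12.5 TPM in the miR-130a libraries, against 14.2, 12.1, 14.3, 12.5 and 13.3 TPM in the control libraries. The groups overlapped, since miR-130a libraries 15 and 18 lay above control library 4. Mertk averaged 10.8 ± 1.63 TPM in miR-130a libraries and 13.3 ± 0.984 TPM in control libraries (SD, n = 5 each), a log2 fold change of −0.28 with a 95% interval from −0.53 to −0.04. It did not pass adjustment over all genes (limma adjusted p = 0.117).

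Tyro3 (ENSMUSG00000027298), the receptor of neurons, was the most abundant of the 5 genes in every library, with a mean TPM above that of 92.4% of tested genes. It had 114.4, 128.3, 114.3, 124 and 122.5 TPM in the miR-130a libraries, against 113, 149.7, 139.9, 129.2 and 82.5 TPM in the control libraries. The miR-130a libraries lay close together, inside a wide range of controls whose lowest was library 9 and whose highest was library 4. Means were 120.7 ± 6.15 TPM in miR-130a and 122.8 ± 26.3 TPM in control libraries (SD, n = 5 each). The log2 fold change was 0.0025 with a 95% interval from −0.31 to 0.31 (limma adjusted p = 0.993), and it was −0.13 when control library 9 was left out (limma adjusted p = 0.314).

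Whether the receptors changed by different amounts was tested on the difference of their log2(TPM + 1) values in each library. All 252 ways of dividing the libraries into 5 and 5 were compared in a 2-sided exact permutation test, whose smallest p is 0.00794. Axl minus Mertk was 0.93 ± 0.29 in miR-130a libraries and 1.85 ± 0.29 in control libraries (SD, n = 5 each), with every miR-130a library below every control (exact permutation p = 0.00794; 0.0159 adjusted over the 4 differences tested). Axl minus Tyro3 was −2.44 ± 0.19 in miR-130a libraries and −1.24 ± 0.44 in control libraries, likewise without overlap (exact permutation p = 0.00794; 0.0159 adjusted). Axl therefore changed by more than either of the other receptors. Mertk minus Tyro3 was −3.38 ± 0.22 in miR-130a and −3.09 ± 0.37 in control libraries, a difference that did not pass (exact permutation p = 0.198; 0.198 adjusted).

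The make-up of the receptor family differed accordingly. Axl made up 12.2 to 16.1% of the summed receptor TPM in miR-130a libraries and 22.4 to 37.0% in control libraries. Tyro3 made up 76.6 to 80.9% in miR-130a libraries and 54.3 to 70.5% in control libraries. The share of Mertk was 5.69 to 8.45% in miR-130a and 5.71 to 8.73% in control libraries. For 1 Mertk transcript there were 1.58 to 2.83 Axl transcripts in miR-130a libraries and 3.03 to 4.84 in control libraries. These shares restate the levels above and were not tested further.

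**Figure D2:**
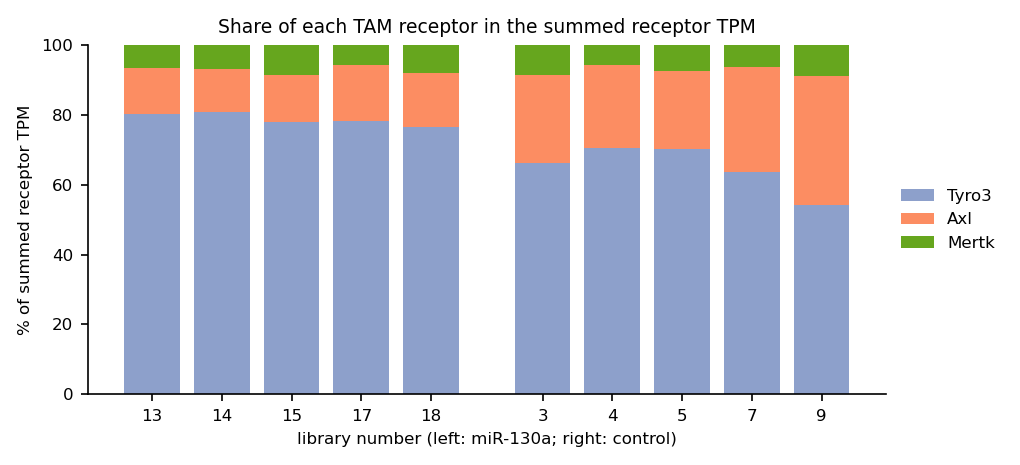
Share of Tyro3, Axl and Mertk in the summed TPM of the receptors, in percent, for each miR-130a library on the left and each control library on the right. The Axl band is at most 16.1% on the left and at least 22.4% on the right, widest in control library 9.

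Pros1 (ENSMUSG00000022912) encodes protein S. It had 6.62, 6.36, 7.59, 7.41 and 10.4 TPM in the miR-130a libraries, against 13.9, 11.3, 11.4, 16.5 and 19.1 TPM in the control libraries. The groups did not overlap, but miR-130a library 18 came close to control libraries 4 and 5, and control libraries 7 and 9 were again the highest. Pros1 fell to 7.68 ± 1.61 TPM in miR-130a libraries, against 14.4 ± 3.34 TPM in control libraries (SD, n = 5 each). The log2 fold change was −0.82 (SE 0.16; 95% interval −1.18 to −0.46; limma adjusted p = 0.00804). Without control libraries 7 and 9 it was −0.62 (limma adjusted p = 0.0279).

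Gas6 (ENSMUSG00000031451), the ligand of each of the receptors, was the more abundant ligand in all 10 libraries. It had 48.0, 42.1, 47.3, 50.1 and 43.9 TPM in the miR-130a libraries, against 60.0, 64.5, 71.2, 55.0 and 53.8 TPM in the control libraries. Every miR-130a library lay below every control, and here control libraries 7 and 9 were the lowest controls. Gas6 fell to 46.3 ± 3.22 TPM in miR-130a libraries, against 60.9 ± 7.15 TPM in control libraries (SD, n = 5 each). The log2 fold change was −0.38 (SE 0.096; 95% interval −0.59 to −0.17; limma adjusted p = 0.0230), and −0.48 without control libraries 7 and 9 (limma adjusted p = 0.0104). The call was lost under median-ratio scaling (−0.27; limma adjusted p = 0.0655), without control library 4 (limma adjusted p = 0.0532) and without miR-130a library 14 (limma adjusted p = 0.0625). An exon of Tmem255b, on the opposite strand, overlaps Gas6 in GENCODE M21. It averaged 2.31 TPM in miR-130a and 1.94 TPM in control libraries, and the kit keeps strand, while the counting setting is not given in the sources used here.

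The 2 ligands were not shown to change by different amounts. Gas6 minus Pros1 was 2.46 ± 0.28 in miR-130a and 2.02 ± 0.46 in control libraries on the log2(TPM + 1) scale (SD, n = 5 each; exact permutation p = 0.0873; 0.116 adjusted over the 4 differences). Without control libraries 7 and 9, the difference between groups in Gas6 minus Pros1, miR-130a less control, was 0.14, against 0.44 with them. Gas6 was 4.22 to 7.25 times as abundant as Pros1 in miR-130a libraries and 2.83 to 6.22 times in control libraries. Gas6 and Pros1 added up to between 48.5 and 57.5 TPM in miR-130a libraries and between 71.4 and 82.6 TPM in control libraries.

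**Figure D3:**
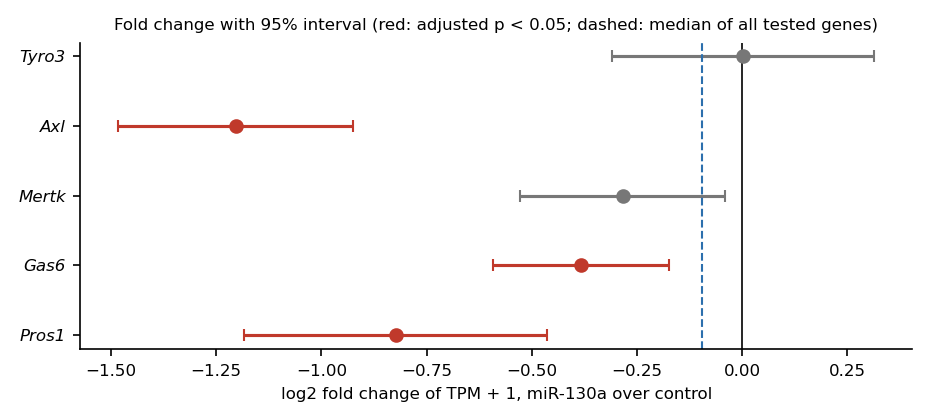
Log2 fold change of TPM + 1, miR-130a over control, with limma's 95% interval for each gene (red where the adjusted p is under 0.05, grey otherwise; the dashed line is the median of all tested genes, −0.09). The interval of Axl, from −1.48 to −0.92, overlaps that of Pros1 and lies below those of Tyro3, Mertk and Gas6.

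In order of level, Tyro3 came first, at a mean of 120.7 TPM in miR-130a and 122.8 TPM in control libraries. Gas6 followed in the miR-130a libraries at 46.3 TPM, clear of Axl at 21.6 TPM. In the controls, Gas6 at 60.9 TPM and Axl at 51.0 TPM overlapped, and Axl was the higher of the pair in control libraries 7 and 9. Mertk and Pros1 were the lowest. Mertk lay above Pros1 in all 5 miR-130a libraries, while in the controls it did so in libraries 3, 4 and 5 but not in 7 and 9.

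The start sites are shown for Axl and Pros1, the 2 genes with the larger decrease. Each window is RefSeq's, from 250 bases before to 50 bases after the annotated start in GRCm38.p6, 5′ to 3′ on the strand of the gene. Axl lies at chr7:25788684-25788983, minus strand, and Pros1 at chr16:62854057-62854356, plus strand. Capitals mark matches, on either strand, to 6 short motifs: AP-1 (TGANTCA), IRF (GAAA, any 2 bases, then GAAA), GAS (TTCNNNGAA), PU.1 (GAGGAA), TEAD (GGAATG) and the E-box (CACGTG). No marked match overlaps another.
Axl: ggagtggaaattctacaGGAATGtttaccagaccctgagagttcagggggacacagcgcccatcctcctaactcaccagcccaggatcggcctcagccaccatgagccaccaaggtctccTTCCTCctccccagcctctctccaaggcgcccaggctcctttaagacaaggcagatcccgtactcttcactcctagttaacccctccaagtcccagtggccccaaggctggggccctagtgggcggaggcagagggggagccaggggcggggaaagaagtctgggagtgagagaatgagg
Pros1: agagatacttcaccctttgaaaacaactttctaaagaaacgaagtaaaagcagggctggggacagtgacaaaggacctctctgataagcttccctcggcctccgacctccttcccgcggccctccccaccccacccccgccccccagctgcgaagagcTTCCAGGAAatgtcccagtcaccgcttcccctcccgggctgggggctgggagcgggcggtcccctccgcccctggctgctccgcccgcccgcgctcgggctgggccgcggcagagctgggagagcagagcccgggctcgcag
The Axl window held a TEAD match that begins 233 bases before the start and a PU.1 match that begins 130 bases before it. The Pros1 window held 1 GAS match, the letters bound by STAT factors, 92 bases before the start. Among 32851 mouse promoters of the same length, 14.7% held the TEAD letters, 28.3% the PU.1 letters, 8.3% the GAS letters, 7.81% AP-1, 3.44% IRF and 7.15% the E-box. The windows of Tyro3, Mertk and Gas6 held none of the 6 motifs. Their content of CpG pairs differed widely. Observed over expected CpG was 0.22 for Axl, 0.498 for Mertk, 0.645 for Pros1, 0.705 for Gas6 and 0.879 for Tyro3, with a median of 0.384 over all promoters. These are descriptions of letters and say nothing of which factor was bound.

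Bulk tissue mixes cell types, and here fewer cells of a type and less RNA per cell cannot be told apart. Markers of microglia, the phagocytes of the brain, were lower beside Axl and Pros1: 10 of 12 passed and 0 were higher, with a median log2 fold change of −0.98. Over all tested genes, 11.3% were lower and 2.19% higher. Their summed TPM ranged from 418 to 522 in miR-130a and from 819 to 1249 in control libraries. Csf1r, the receptor on which microglia depend, fell to 55.7 ± 13.1 TPM in miR-130a libraries, against 147 ± 23.4 TPM in control libraries (SD, n = 5 each; limma adjusted p = 0.000873). Without control libraries 7 and 9, 9 of the 10 calls remained.

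Markers of other cells known to express these genes follow. Their counts stand beside 11.3% of all tested genes lower and 2.19% higher with the values as deposited. Counts under median-ratio scaling stand beside 1192 of 15680 tested genes lower and 862 higher. Those after quantile normalization stand beside 1046 lower and 1071 higher. Of 10 endothelial markers, 8 were lower and 0 higher, or 5 and 3 lower under median-ratio scaling and quantile normalization, with summed TPM of 257 to 310 in miR-130a and 355 to 417 in control libraries. The adhesion molecules Pecam1 and Cdh5 were at 12.4 ± 1.30 and 6.46 ± 0.897 TPM in miR-130a libraries, against 20.7 ± 2.20 and 10.8 ± 0.781 TPM in control libraries (SD, n = 5 each; limma adjusted p = 0.00205 and 0.00290). Of 10 mural and fibroblast markers, 5 were lower and 0 higher, and 2 remained without control libraries 7 and 9. The matrix protein gene Vtn was at 73.6 ± 12.6 TPM in miR-130a and 128 ± 12.2 TPM in control libraries, and the pericyte receptor Pdgfrb at 7.68 ± 1.20 TPM in miR-130a and 12.1 ± 0.569 TPM in control libraries (SD, n = 5 each; limma adjusted p = 0.00249 and 0.00535). The other 5 markers of that list did not pass. Among them, Rgs5 was at 30.4 ± 7.53 TPM in miR-130a and 29.5 ± 5.57 TPM in control libraries (SD, n = 5 each; log2 fold change 0.023; limma adjusted p = 0.954). The summed TPM of that list was 131 to 182 in miR-130a and 216 to 296 in control libraries. Of 10 astrocyte markers, 1 was lower, the intermediate filament Gfap at 114 ± 43.2 TPM in miR-130a and 396 ± 111 TPM in control libraries (SD, n = 5 each; limma adjusted p = 0.0021). Sox9, a transcription factor of astrocytes, was at 11.4 ± 2.00 TPM in miR-130a and 15.5 ± 1.96 TPM in control libraries and did not pass (limma adjusted p = 0.0540). Aldoc and Slc1a2 went the other way and did not pass (log2 fold changes 0.30 and 0.069; limma adjusted p = 0.165 and 0.760). After quantile normalization 1 astrocyte marker was higher, and without control libraries 7 and 9, 2 were lower. The astrocyte sums overlapped, at 1644 to 2090 TPM in miR-130a and 1833 to 2261 TPM in control libraries. How much of the change in Axl, Pros1 and Gas6 came with these cell types was not tested.

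Ratios to single markers, chosen after their values were seen, are given as descriptions with no test. Axl per Csf1r was 0.398, 0.417, 0.430, 0.357 and 0.361 in miR-130a libraries 13, 14, 15, 17 and 18, against 0.324, 0.314, 0.297, 0.347 and 0.489 in control libraries 3, 4, 5, 7 and 9. These ratios overlapped through control library 9 alone, at 0.489. Every miR-130a library lay above control libraries 3, 4, 5 and 7, at 0.297 to 0.347. Mertk per Csf1r was 0.126 to 0.272 in miR-130a libraries, above all controls at 0.0717 to 0.116. Pros1 per Csf1r overlapped, at 0.104 to 0.167 in miR-130a and 0.0705 to 0.166 in control libraries. Its highest control was library 9, but control library 3, at 0.105, also lay above miR-130a library 17, at 0.104. Axl per P2ry12, a microglial receptor that did not pass (limma adjusted p = 0.485), was 0.403 to 0.893 in miR-130a libraries and 0.877 to 1.90 in control libraries. Axl per Pecam1 was 1.595 to 1.860 in miR-130a libraries and 1.862 to 2.807 in control libraries, and Pros1 per Pecam1 overlapped at 0.524 to 0.764 in miR-130a and 0.478 to 0.952 in control libraries.

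Neuronal markers stand beside Tyro3. Counts under the scaling alternatives, median-ratio scaling and quantile normalization, again stand beside the all-gene counts of those settings given above. Of 10 excitatory neuron markers, 0 were lower or higher (2 higher under either scaling alternative, and 2 lower without control libraries 7 and 9), with summed TPM of 3544 to 4714 in miR-130a and 3232 to 6158 in control libraries. The transcription factors Neurod6 and Neurod2 had the lowest p-values of that list, at 101 ± 15.4 and 38.6 ± 3.85 TPM in miR-130a libraries and 77.4 ± 14.2 and 48.4 ± 7.998 TPM in control libraries, and did not pass (SD, n = 5 each; limma adjusted p = 0.0994 and 0.135). Of 10 inhibitory neuron markers, the neuropeptide genes Sst and Vip were higher, beside 2.19% of all tested genes. Sst rose to 1065 ± 182 TPM in miR-130a libraries, against 645 ± 30.4 TPM in control libraries (SD, n = 5 each; limma adjusted p = 0.00365), while the call of Vip (limma adjusted p = 0.0348) was lost on leaving out any 1 of 7 libraries. Vip was at 47.7 ± 6.31 TPM in miR-130a and 36.4 ± 2.50 TPM in control libraries (SD, n = 5 each). The summed inhibitory markers ranged from 1482 to 1843 TPM in miR-130a and from 1026 to 1391 TPM in control libraries, with Sst the largest part. The other 8 did not pass. Among them, Gad1, Gad2 and Slc32a1 had log2 fold changes of 0.19, 0.27 and −0.023 (limma adjusted p = 0.630, 0.317 and 0.952).

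Remaining marker lists were mostly without calls. Of 10 oligodendrocyte markers, 0 passed, with summed TPM of 1339 to 3744 in miR-130a and 2163 to 3872 in control libraries. The myelin genes Myrf and Cnp, of lowest p, were at 9.78 ± 4.04 and 180 ± 54.9 TPM in miR-130a and 16.2 ± 4.18 and 243 ± 46.1 TPM in control libraries (SD, n = 5 each; limma adjusted p = 0.0816 and 0.170). Of 8 precursor markers, 0 passed, or 2 without control libraries 7 and 9, with summed TPM of 126 to 196 in miR-130a and 166 to 239 in control libraries. Gpr17 and Olig2, of lowest p there, were at 12.2 ± 1.67 and 13.9 ± 2.03 TPM in miR-130a and 17.2 ± 3.78 and 18.4 ± 2.89 TPM in control libraries (SD, n = 5 each; limma adjusted p = 0.0602 and 0.0791). Of 8 border macrophage markers, 4 were below 1 TPM, and Ms4a7 alone was lower, at 1.16 ± 0.501 TPM in miR-130a and 11.2 ± 13.7 TPM in control libraries (SD, n = 5 each; limma adjusted p = 0.0381), a call lost under either scaling alternative and on leaving out any 1 of 7 libraries. Mrc1, the mannose receptor of these cells, was at 1.24 ± 0.413 TPM in miR-130a and 2.53 ± 1.23 TPM in control libraries and did not pass (limma adjusted p = 0.101). Pf4 went the other way, at 3.68 ± 1.36 TPM in miR-130a and 2.49 ± 1.11 TPM in control libraries. Neither Pf4 nor Cbr2 passed (log2 fold changes 0.43 and −0.33; limma adjusted p = 0.306 and 0.253). The summed border macrophage markers were 5.15 to 11.3 TPM in miR-130a and 8.45 to 46.9 TPM in control libraries. Of 8 choroid plexus and ependyma markers, 6 were below 1 TPM. Foxj1, a factor of ciliated cells, fell to 2.70 ± 1.08 TPM in miR-130a libraries, against 5.21 ± 0.865 TPM in control libraries (SD, n = 5 each; limma adjusted p = 0.0254), a call lost without control libraries 7 and 9, after quantile normalization, without a filter and on leaving out any 1 of 4 libraries. Enpp2 was at 103 ± 10.5 TPM in miR-130a and 109.9 ± 16.8 TPM in control libraries and did not pass (limma adjusted p = 0.691). That list added up to 87.9 to 118 TPM in miR-130a and 98.3 to 145 TPM in control libraries.

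The pathway around the receptors was described with lists chosen with earlier results of these data known. The counts in each pathway list, here and below, stand beside 11.3% of all tested genes lower and 2.19% higher with the values as deposited. Under median-ratio scaling and quantile normalization, 862 and 1071 of all tested genes were higher. Of 17 other phosphatidylserine receptors and bridging proteins, 13 were tested, 5 were lower and 0 higher, with a median log2 fold change of −0.49 (4 and 5 lower and 1 higher under median-ratio scaling and quantile normalization). Itgb5, an integrin subunit that takes up dying cells through the bridge Mfge8, fell to 42.4 ± 9.89 TPM in miR-130a libraries, against 77.9 ± 10.1 TPM in control libraries. Havcr2, also called Tim-3, fell to 2.01 ± 0.355 TPM, against 4.81 ± 1.58 TPM in control libraries (SD, n = 5 each; limma adjusted p = 0.00365 for Itgb5 and 0.00803 for Havcr2). Cd300lf, a lipid receptor of myeloid cells, was at 0.18 ± 0.166 TPM in miR-130a and 2.92 ± 2.25 TPM in control libraries (limma adjusted p = 0.0157). The other lower members were the lipid receptor Cd300a (log2 fold change −1.35) and the scavenger receptor Lrp1 (−0.50), while Mfge8 itself did not pass (0.29; limma adjusted p = 0.309).

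Downstream of such receptors lie the machinery of engulfment and the carriers of the signal. Of 15 engulfment genes, 7 were lower and 0 higher (median −0.31), and 7 of these calls remained without control libraries 7 and 9. Abca1, a lipid exporter linked to engulfment, fell to 3.84 ± 0.845 TPM in miR-130a libraries, against 10.6 ± 1.97 TPM in control libraries. Vav1 and Dock2, exchange factors for Rac in blood-lineage cells, fell to 3.65 ± 0.738 and 2.05 ± 0.527 TPM in miR-130a libraries, against 11.7 ± 3.999 and 6.98 ± 2.03 TPM in control libraries (SD, n = 5 each; limma adjusted p between 0.000927 and 0.00181). Rac2, Rhog, Crkl and Abca7 were also lower, with log2 fold changes of −2.11, −0.97, −0.32 and −0.44 (limma adjusted p between 0.00508 and 0.0455). The other 8 did not pass, among them Rac1, Dock1, Elmo1, Elmo2, Crk and Gulp1 (log2 fold changes from −0.23 for Elmo2 to 0.022 for Elmo1). Of 15 signal transduction genes, 2 were lower and 0 higher (median −0.18), beside 11.3% of all tested genes lower. Plcg2, a phospholipase of immune cells, fell to 2.02 ± 0.450 TPM in miR-130a libraries, against 5.68 ± 1.23 TPM in control libraries (limma adjusted p = 0.00147). The kinase genes Akt1 and Src were at 94.4 ± 5.70 and 45.3 ± 4.19 TPM in miR-130a and 124 ± 19.2 and 61.5 ± 10.7 TPM in control libraries (SD, n = 5 each). Akt1 passed (limma adjusted p = 0.0469), a call lost on leaving out any 1 of 9 libraries, and Src did not (limma adjusted p = 0.0515). Without control libraries 7 and 9, 5 genes of that list were lower, and under median-ratio scaling 1 was.

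TAM receptors are known to borrow the type I interferon receptor to induce the Socs inhibitors. The list for that arm also holds Toll-like receptors. Of its 13 tested genes, 11 were lower and 0 higher, with a median log2 fold change of −1.03. Without control libraries 7 and 9, 9 of the calls remained. The Toll-like receptor Tlr2 fell to 1.54 ± 0.372 TPM in miR-130a libraries, against 12.7 ± 5.32 TPM in control libraries. Ifnar2, a chain of the interferon receptor, fell to 17.6 ± 2.25 TPM, against 32.8 ± 5.60 TPM in control libraries, and Tlr9, a sensor of DNA, to 1.12 ± 0.334 TPM, against 4.37 ± 1.37 TPM in control libraries (SD, n = 5 each; limma adjusted p between 0.000503 and 0.00205). The inhibitors Socs1 and Socs3 fell to 0.492 ± 0.189 and 1.74 ± 0.463 TPM in miR-130a libraries, against 2.24 ± 1.38 and 6.12 ± 3.25 TPM in control libraries (SD, n = 5 each; limma adjusted p = 0.0256 and 0.0184). Stat2, Irf9, Tyk2, Tlr3 and Ifnar1 were also lower, with log2 fold changes from −1.63 for Irf9 to −0.38 for Ifnar1, while Jak1 (−0.15) and Twist2 (0.12) did not pass.

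Of 14 tested nuclear receptors and factors known to drive Mertk or Axl, 5 were lower and 0 higher (median −0.26), and all 5 calls remained without control libraries 7 and 9. Under median-ratio scaling and quantile normalization, 3 and 2 were lower, and 1 was higher under median-ratio scaling. Maf, a factor of macrophages, fell to 7.49 ± 0.937 TPM in miR-130a libraries, against 12.2 ± 1.38 TPM in control libraries (SD, n = 5 each; limma adjusted p = 0.00461). Rxra, a partner of liver X receptors, fell to 12.3 ± 0.938 TPM, against 16.7 ± 1.24 TPM in control libraries (SD, n = 5 each; limma adjusted p = 0.0118; 0.0953 after quantile normalization). Of the liver X receptors, Nr1h2 was lower (log2 fold change −0.51; limma adjusted p = 0.0348) and Nr1h3 did not pass (−0.43; 0.256).

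Other lists hold genes that modify the ligands. Of 8 genes of the vitamin K cycle and carboxylation, 1 was lower, beside 11.3% of all tested genes. It was the convertase gene Furin, at 12.4 ± 1.15 TPM in miR-130a and 16.6 ± 2.10 TPM in control libraries (SD, n = 5 each; limma adjusted p = 0.0371), a call lost under either scaling alternative and on leaving out any 1 of 7 libraries. Ggcx, the carboxylase that makes Gla domains, and Vkorc1, which recycles vitamin K, were at 5.01 ± 0.614 and 27.9 ± 3.16 TPM in miR-130a and 6.52 ± 1.02 and 33.7 ± 7.53 TPM in control libraries and did not pass (limma adjusted p = 0.119 and 0.273). Of 12 other Gla-domain proteins, 5 were tested. Prrg3, a membrane Gla protein, rose to 12.9 ± 1.49 TPM in miR-130a libraries, against 8.81 ± 1.37 TPM in control libraries (SD, n = 5 each; limma adjusted p = 0.0201), a call lost without miR-130a library 13 (0.0580). The matrix Gla protein Mgp was at 46.2 ± 12.9 TPM in miR-130a and 88.2 ± 31.6 TPM in control libraries and Prrg2 at 10.4 ± 2.35 and 13.04 ± 3.14 TPM, without passing (limma adjusted p = 0.0754 and 0.323).

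Of 6 tested genes of receptor shedding and other TAM ligands, 2 were lower and 0 higher. Lgals3, a galectin that also binds Mertk, fell to 1.97 ± 0.927 TPM in miR-130a libraries, against 26.2 ± 23.8 TPM in control libraries, and Rhbdf2, which brings the sheddase Adam17 to the surface, to 0.598 ± 0.0740 TPM, against 1.69 ± 0.462 TPM in control libraries (SD, n = 5 each; limma adjusted p = 0.00492 and 0.0122). Adam17, which cleaves Axl and Mertk, was at 4.98 ± 1.66 TPM in miR-130a and 7.90 ± 2.06 TPM in control libraries and did not pass (limma adjusted p = 0.0938). Of 12 genes of phosphatidylserine exposure, 4 were lower and 0 higher (median −0.14), and 2 of the calls remained without control libraries 7 and 9. Under either scaling alternative, 1 was lower and 1 higher. Plscr3, a scramblase family member, fell to 6.83 ± 0.912 TPM in miR-130a libraries, against 11.6 ± 1.78 TPM in control libraries (SD, n = 5 each; limma adjusted p = 0.00573). The scramblase genes Xkr8 and Ano6 were at 1.19 ± 0.138 and 5.07 ± 0.785 TPM in miR-130a and 2.25 ± 0.536 and 7.11 ± 0.702 TPM in control libraries (SD, n = 5 each; limma adjusted p = 0.0346 and 0.0360), calls lost on leaving out any 1 of 6 libraries for Xkr8 and of 7 for Ano6.

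**Figure D4:**
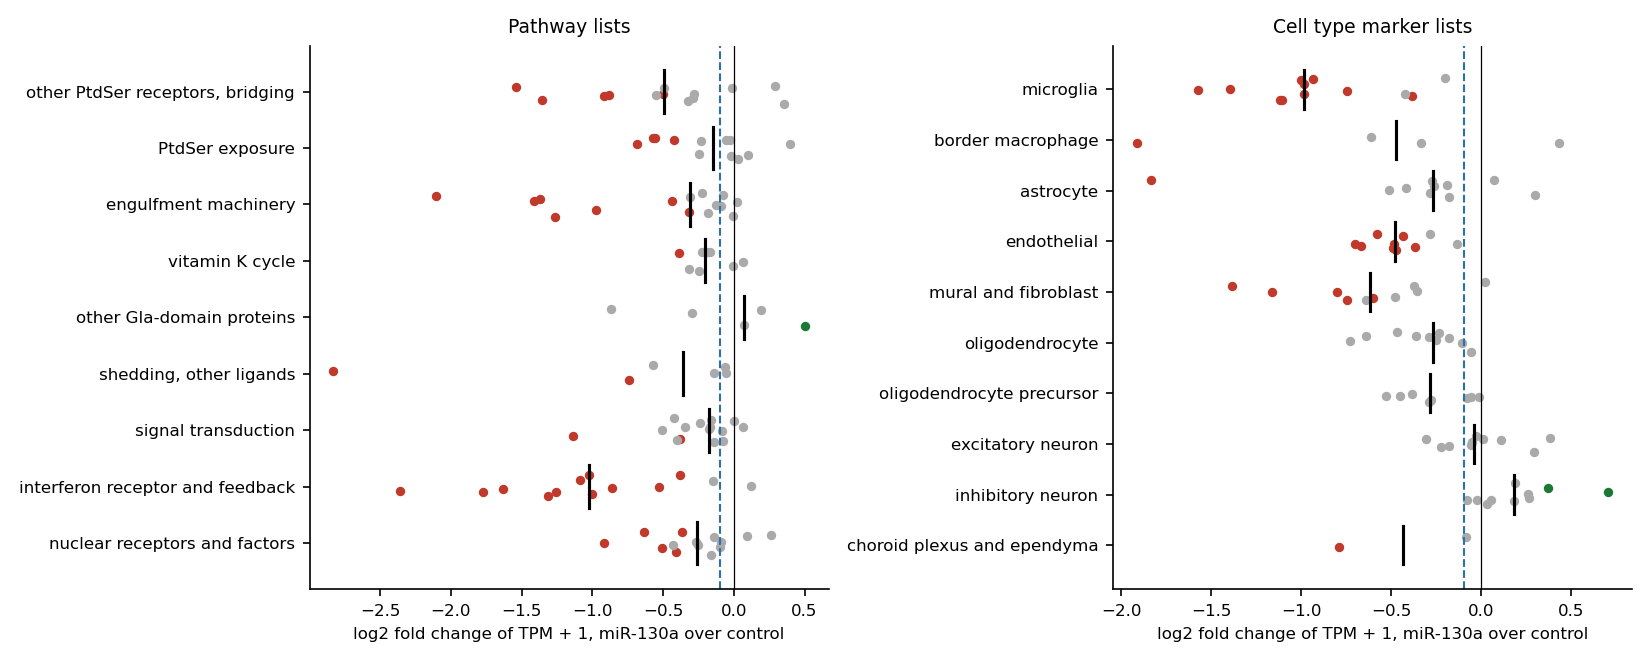
Log2 fold change of TPM + 1, miR-130a over control, for each tested gene of the pathway lists (left) and cell type marker lists (right), red where lower and green where higher at an adjusted p under 0.05, grey otherwise. Black bars are list medians and the dashed line the median of all genes. The furthest left medians are those of the interferon arm, Toll-like receptors included (−1.03), and of microglia (−0.98). PtdSer stands for phosphatidylserine.

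The genes whose library-to-library pattern was most like that of each member were found from log2(TPM + 1) values, as deviations from the group mean over the 10 libraries, by Pearson's r. They are the highest of all tested protein-coding genes, so r is a measure of likeness and was given no test. For Axl they were Pbxip1 (r = 0.959), Itpkb (0.926), Nes (0.925) and Triobp (0.898). For Pros1 they were Mvp (0.954), Tcf7 (0.953), Ncf4 (0.947) and Vav1 (0.945), and for Gas6 they were Hacd3 (0.978), Oxa1l (0.962), Gdpd1 (0.962) and Capn5 (0.961). For Mertk they were Fyco1 (0.986), Tnrc6a (0.976), Eml5 (0.969) and Zeb2 (0.966). For Tyro3 they were Jade2 (0.986), Smyd2 (0.983), Mpp3 (0.983) and Slc4a3 (0.979). Tyro3 varied mainly among the controls (SD 26.3 TPM, against 6.15 TPM in miR-130a libraries), so its r values rest mainly on the controls.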

How the data were processed

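The deposited file gives TPM for each gene in each library, as the authors computed it, with symbols and biotypes. The build GRCm39 and the tools fastp, RSEM, HISAT2 and DESeq2 are named, per the submitters' processing notes, without versions or roles. Per the labels' protocols, tissue came as 1-mm punches and libraries were stranded and poly(A)-selected. Each library adds up to the same TPM total, so abundant genes that differ move the values of the rest, and TPM gives no depth, so no counting interval was computed. Columns were assigned by sample titles. The authors' columns of group means were not used.

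Groups were compared on log2(TPM + 1) with limma 3.58.1 and a mean-variance trend under R 4.3.3 (reading by version 1.17.8 of data.table), 2-sided, with Benjamini-Hochberg adjustment over all genes tested. The code was tested on simulated data. The labels give no batch, and library numbers follow the groups, so an effect of processing order and of the virus cannot be told apart. The members, lists and alternatives were chosen with earlier results of these data known. Named were the members, the 3 genes of lowest p in each pathway list and the 2 in each marker list, and the 4 genes most like each member. Other genes named were chosen after their values were seen. Some genes that this rule takes are not reported here. Fcrls was matched through its gene identifier. Sequences are RefSeq's (GRCm38.p6) and GENCODE M21's (GRCm38), read with Python 3.11.15, numpy 2.4.6 and matplotlib 3.10.9, and matched for 5 of 5 genes. Alternatives covered pseudocounts of 0.1 and 0.5, filters, scaling, variance moderation and left-out libraries.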

Additional observations from a re-analysis of the deposited data

Results flagged for a closer look

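In 38 sets of 5 libraries (the members, their sums, shares and ratios), 1 value lay far from the others of its group. It was Axl per Csf1r in control library 9, at 0.489, where the other control libraries lay between 0.297 and 0.347. Its gap to the nearest library was 0.738 of the group's range, above the critical value of 0.71. Chance would place about 1 in 20 such sets past that value, and this ratio was chosen after its values were seen.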

How the results depend on the processing

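Axl and Pros1 kept their direction and their call under all 21 alternatives, with log2 fold changes from −1.27 to −1.07 and from −0.93 to −0.62 and limma adjusted p-values of at most 0.00402 and 0.0281. Mertk passed under none of them (−0.33 to −0.12). Gas6 missed the threshold under median-ratio scaling (−0.27), and leaving out single libraries gave −0.42 to −0.33, with 8 of 10 past it. Tyro3 passed nowhere and had no stable sign, at −0.13 to 0.081 on leaving out single libraries and −0.14 without control libraries 7 and 9. Axl minus Mertk and Axl minus Tyro3 passed under every pseudocount and left-out library tried (−1.04 to −0.84 and −1.30 to −1.03 over single libraries). Leaving libraries out cannot bring overlap to groups that had none, so those passes followed from the full result and add no support. Mertk minus Tyro3 (−0.39 to −0.15) and Gas6 minus Pros1 (0.30 to 0.57) never passed. Without control libraries 7 and 9, these last differences were −0.17 for Mertk minus Tyro3 and 0.14 for Gas6 minus Pros1. Genes lower in the miR-130a group numbered 1124 without a filter and 1046 after quantile normalization, and 1108 to 2922 on leaving out single libraries. Genes higher numbered 178 without a filter, 862 under median-ratio scaling, 1071 after quantile normalization, 533 rescaled to protein-coding genes, and 146 to 499 on leaving out single libraries. Among single libraries, the lower count moved by over 1.5 times without control library 7 (1108), control library 9 (2922) and miR-130a libraries 13 (1158) and 14 (1117). The cause was not tested. Of 47 list genes named for the lowest p of their list, 32 passed and 23 kept their call in all 21 alternatives. A high count follows from that choice, and of all tested genes 13.5% passed in either direction. Enpp2, which did not pass, turned to 0.033 under median-ratio scaling and 0.0028 after quantile normalization. No paired analysis was possible because the groups share no library numbers.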
